A study of Homo sapiens with 4 samples.

Results

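The comparison described here sets 2B-OlapR against LN-OlapR, a pair of human prostate cancer cell lines that were each made resistant to olaparib. Its members are the genes with a mean of at least 1 CPM (counts per 1000000 counts of effective library size) over the 2 libraries, which left 15533 of the 22619 genes in the count table. At the edge of that minimum, CHRM1 was left out with 28 counts in 2B-OlapR and 15 in LN-OlapR, whereas TOX2 was kept with 13 and 32. For each gene, the ratio of 2B-OlapR to LN-OlapR was set beside the ratio of the parental lines, C4-2B to LNCaP, so that differences that the parents already had could be separated from those seen only between the resistant lines.

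The study sequenced mRNA from LNCaP, a castration-sensitive line from a lymph node metastasis, from C4-2B, a castration-resistant derivative of LNCaP, and from one resistant subline of each. LN-OlapR came from LNCaP and 2B-OlapR from C4-2B, both by long culture in increasing olaparib, and both were kept in the drug afterwards. Per the labels, cells were plated for 48 hours without the selecting drug before RNA was taken. Each line gave 1 library and each resistant line is a single derived line, so there is no replicate check on any value, no p-value is given, and selection, drift in culture and variation between RNA preparations cannot be told apart.

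Olaparib blocks PARP enzymes, which sense single-strand breaks in DNA, and holds them on the DNA so that replication forks stall and must be rescued by homologous recombination. Prostate luminal cells depend on androgens, which switch on secretory genes such as KLK3, the gene of prostate-specific antigen. Cells with DNA damage induce genes of cell cycle arrest, cell death and repair, among them CDKN1A and BAX.

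Library totals ranged from 19940864 counts in C4-2B to 26381555 in LNCaP, with 24263010 in LN-OlapR and 20788696 in 2B-OlapR. At this depth 3 counts correspond to 0.129 CPM in LN-OlapR and 0.145 CPM in 2B-OlapR. Both resistant lines carried luminal markers, with KRT8 at 260 CPM in LN-OlapR and 268 CPM in 2B-OlapR and HOXB13 at 382 and 508 CPM. The LNCaP library stood apart in KLK3, with 53.2 CPM against 1871 to 2687 CPM in the other 3, and in H2AJ, with 0 counts. Its label was kept. Every parental ratio, every ratio of LN-OlapR to LNCaP and the classes drawn from them rest on that library. None can be recomputed without it, whereas the ratio of 2B-OlapR to LN-OlapR compares other libraries. The basal marker KRT14 stayed under 1 CPM in both, whereas KRT5, TP63 and PTPRC had no row in the table used here. Across the genes analysed, each resistant library was closest in rank order to its own parent (Spearman correlation 0.97 for LNCaP and LN-OlapR, 0.967 for C4-2B and 2B-OlapR), and the correlation between the resistant libraries was 0.933, as a description across genes within single libraries.

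Between the resistant lines, 2851 of 15533 genes (18.4%) differed at least 2-fold. Of these, 1382 (8.9% of all genes) were higher in 2B-OlapR and 1469 (9.46%) were lower, and 488 and 401 of them differed at least 4-fold. The median log2 ratio over all genes was -0.01, with quartiles of -0.46 and 0.41. All 2851 had a 95% counting interval that left out an equal level, an interval that covers counting error only. The minimum level and the 2-fold limit largely fixed this outcome, so it adds no support to the differences. The parental lines differed at least 2-fold at 2363 of the 15569 genes that reached the same minimum in them (15.2%). Over the genes of the resistant comparison, 1562 (10.1%) differed 2-fold between 2B-OlapR and C4-2B, and 1482 (9.54%) between LN-OlapR and LNCaP.

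Many of the differences were inherited from the parents. Of the 2851 genes, 1181 (41.4%) were already at least 2-fold apart in the same direction between C4-2B and LNCaP, 660 of them higher and 521 lower on the C4-2B side. Within this class 792 genes kept a ratio within 2-fold of the parental one, 246 had a larger ratio and 143 a smaller one. The parental counting interval included an equal level for 18 of the 1181, which were thinly counted in the parents. A further 607 genes (21.3%) had a parental log2 ratio of 0.5 to 1 in the same direction. The log2 ratios of the resistant and the parental pair, which share no library, had a Spearman correlation of 0.541 across the 14952 genes that reached the minimum in both pairs.

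The remaining 2-fold differences did not reach these limits in the same direction in the parents. For 793 genes (27.8%) the parental log2 ratio was under 0.5 in size, and these are called new here. The name rests on that limit, and a smaller difference in the same direction may have been there in the parents. They split into 346 higher and 447 lower in 2B-OlapR. In 262 of them (33.0%) 2B-OlapR alone was at least 2-fold from its parent in the direction of the difference, in 143 (18.0%) LN-OlapR alone was, in 27 (3.4%) both were, and in 361 (45.5%) neither was, so that the difference was the sum of smaller ones. Another 270 genes (9.47%) differed the opposite way in the parents by a log2 ratio of 0.5 or more.

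**Figure D1:**
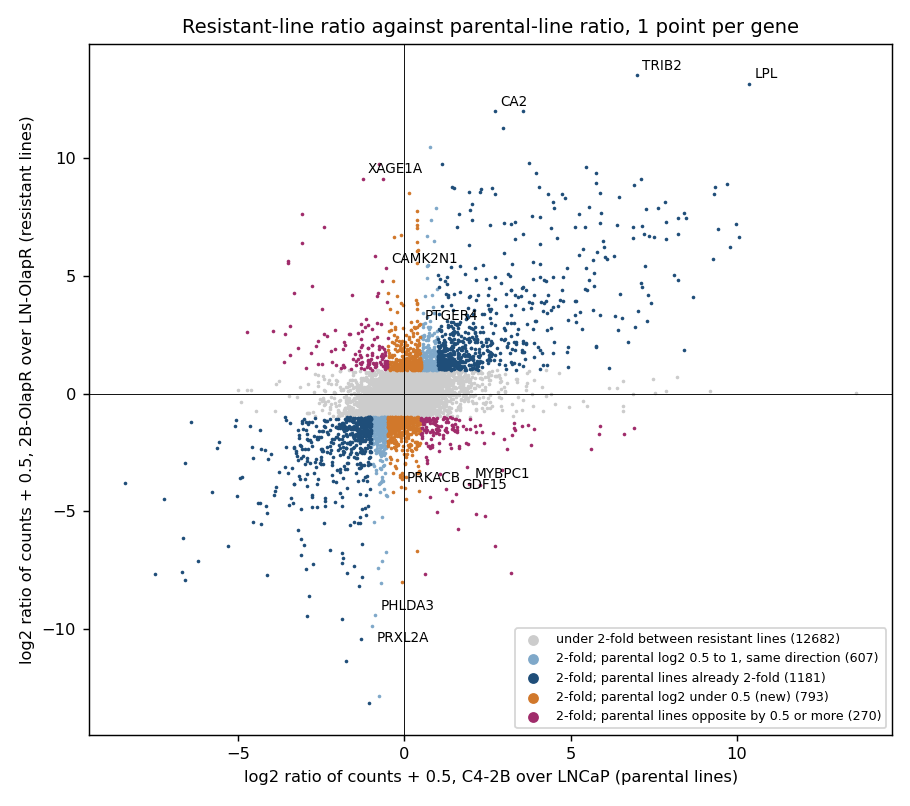
Each point is 1 of 15533 genes, with the log2 ratio of C4-2B over LNCaP on the horizontal axis and that of 2B-OlapR over LN-OlapR on the vertical axis; colours give the class, and class sizes are in the key. The 1181 dark blue genes lie in the quadrants where both pairs differ the same way, the 793 orange genes in the band where the parental ratio was under 0.5 in size.

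Of genes with a mean of at least 10 CPM over the resistant lines, the limit for genes named here by rank, the 10 highest in 2B-OlapR relative to LN-OlapR all had 3 counts or fewer in LN-OlapR. TRIB2, which encodes a pseudokinase, had 0 counts in LNCaP and 0 in LN-OlapR, against 48 in C4-2B and 5219 in 2B-OlapR. Against the limit that a count of 0 allows, taken as 3 counts in LN-OlapR, it was at least 1958-fold higher in 2B-OlapR. LPL, the lipase that releases fatty acids from circulating triglycerides, had 0, 0, 503 and 4106 counts in the same order of libraries and was at least 1540-fold higher. Both genes were therefore already counted in C4-2B and at 0 in both LNCaP-side libraries, and both exceeded their C4-2B level in 2B-OlapR (log2 ratios of 6.73 and 3.01).

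Carbonic anhydrases, which interconvert carbon dioxide and bicarbonate, made up a block of neighbouring genes with the same pattern. CA1 had 0 counts in LNCaP and 0 in LN-OlapR, against 4 in C4-2B and 1837 in 2B-OlapR, and CA2 had 0, 0, 2 and 1804. They were at least 689-fold and 677-fold higher in 2B-OlapR than in LN-OlapR. The threshold placed both among genes already different in the parents, but this rested on 4 and 2 counts in C4-2B, and nearly all of the level belonged to 2B-OlapR. CA3 reached 7.53 CPM in 2B-OlapR and stood at 0 in LNCaP and LN-OlapR, and CA13 had 1.34, 2.14, 12.4 and 68.9 CPM in LNCaP, LN-OlapR, C4-2B and 2B-OlapR. All 4 genes lie on chromosome 8 between positions 85220587 and 85481493 of GRCh38 by the GENCODE annotation. Of the 10 genes analysed within 1000000 bases of that block, 5 were at least 2-fold higher in 2B-OlapR, namely these 4 and the antisense gene CA3-AS1, which overlaps others in the block and may share their reads. The flanking genes E2F5 and WWP1, named here after their values were seen, had log2 ratios of 0.21 and 0.07. Of 15 carbonic anhydrase genes listed, 8 reached the minimum level, some of them only through 2B-OlapR, with 5 higher and none lower, beside 8.9% and 9.46% of all genes. Their median log2 ratio was 6.34, or 5.04 with the genes at 0 counts set to their bound.

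A different set of genes stood high in this contrast because LN-OlapR had nearly none of what LNCaP had. PAGE1, a cancer-testis antigen on the X chromosome, had 550 counts in LNCaP and 1 in LN-OlapR, against 3248 in C4-2B and 3309 in 2B-OlapR, a ratio of 3724 between the resistant lines (95% counting interval 668 to 147146). PARVA, which encodes alpha-parvin of focal adhesions, had 294, 0, 381 and 638 counts and was at least 239-fold higher in 2B-OlapR. MEST, an imprinted gene, had 754, 3, 2189 and 1192 counts, a ratio of 447 (153 to 2172). In these 3 genes C4-2B and 2B-OlapR were within 2-fold of each other while LN-OlapR was far below its parent. MAGEA1, another X-linked cancer-testis antigen, had 69, 3, 2896 and 2072 counts. BRINP1 had 0, 1, 318 and 641 counts, which followed the parental difference.

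At the same limit, genes lowest in 2B-OlapR relative to LN-OlapR were led by PRXL2A, which encodes a peroxiredoxin-like protein. It had 6 counts in LNCaP and 523 in LN-OlapR, against 2 in C4-2B and 0 in 2B-OlapR, which makes LN-OlapR higher by at least 155-fold. PHLDA3, a damage-induced gene that restrains AKT, had 1201, 1928, 493 and 2 counts, a ratio of 857 in favour of LN-OlapR (237 to 7078). Its level in 2B-OlapR was therefore near 0 although all 3 other libraries held 493 counts or more. CACNA1H, a T-type calcium channel gene, had 188, 1519, 19 and 3 counts, a ratio of 450 (154 to 2184). The scavenging chemokine receptor gene ACKR3 had 1136, 1656, 99 and 12 counts and was 123-fold higher in LN-OlapR (70.0 to 238). For both, C4-2B was already well below LNCaP and 2B-OlapR was lower still.

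The protocadherin gene PCDHB5 had 192, 677, 1 and 2 counts in LNCaP, LN-OlapR, C4-2B and 2B-OlapR, so that its absence was inherited from C4-2B. Protocadherin beta genes are similar in sequence, and reads may have been split among them. The homeobox gene PKNOX2 (log2 ratio -4.80), AHNAK2 (-4.46) and GASK1B (-4.35) completed the list with GDF15 and PRKACB, which are described below. Of the 10 lowest genes, CACNA1H, GASK1B, GDF15 and PRKACB were below C4-2B in 2B-OlapR and above LNCaP in LN-OlapR, by at least 2-fold on each side, whereas the 2 and 0 counts of PRXL2A on the C4-2B side show no difference between them.

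**Figure D2:**
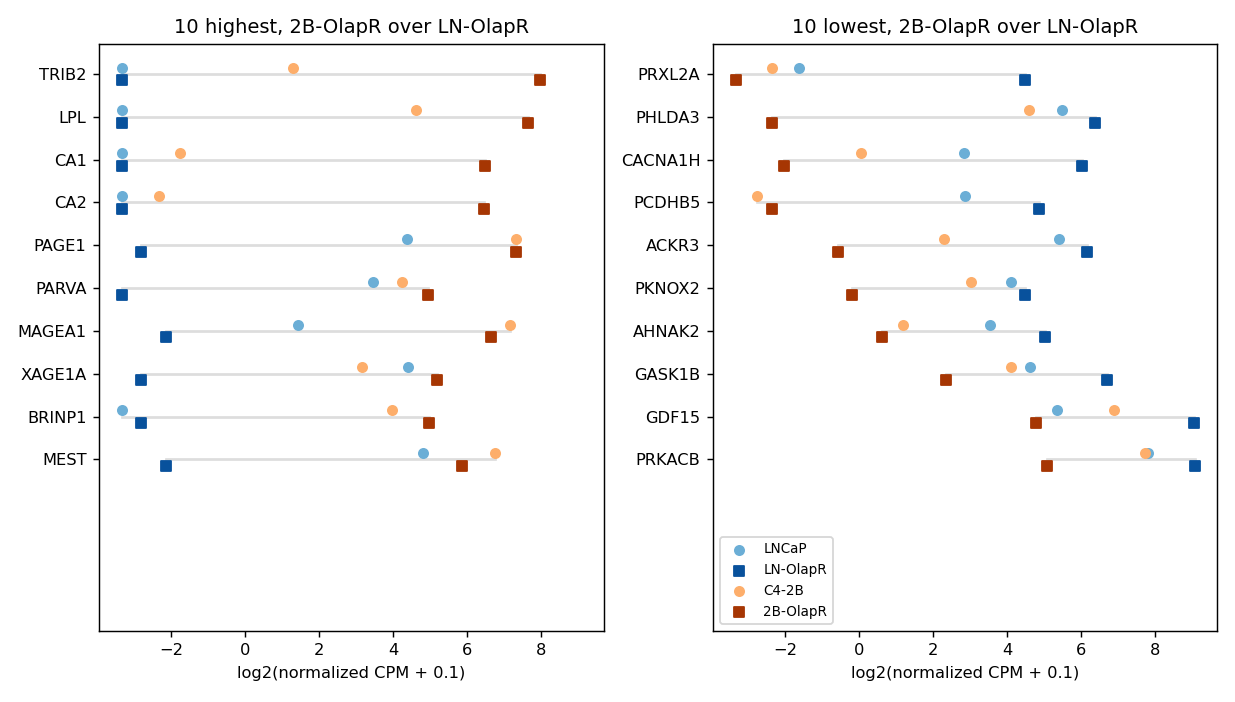
Normalized level, as log2(CPM + 0.1), of the 10 genes with the highest and the 10 with the lowest ratio of 2B-OlapR to LN-OlapR at a mean of at least 10 CPM; circles are the parental libraries and squares the resistant ones, 1 library each. TRIB2, LPL, CA1 and CA2 lie at the left end in both LNCaP and LN-OlapR, whereas PAGE1, PARVA and MEST are at the left end in LN-OlapR but not in LNCaP.

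Among new differences with a mean of at least 10 CPM, the highest genes included secreted and membrane proteins. PTGER4, a receptor for prostaglandin E2, had 2.64 CPM in LNCaP and 5.02 in LN-OlapR, against 3.62 in C4-2B and 37.9 in 2B-OlapR, a 7.55-fold difference between the resistant lines (6.21 to 9.25). IGFBP3, which binds insulin-like growth factors outside the cell, had 5.06, 13.2, 6.36 and 92.3 CPM, a 6.99-fold difference (6.19 to 7.91). IGFBP3 was above its parent in both resistant lines (log2 ratio 3.85 for 2B-OlapR and 1.38 for LN-OlapR), by more in 2B-OlapR. SLC36A1, a lysosomal amino acid transporter, had 22.7, 16.8, 23.5 and 93.4 CPM.

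Other genes entered the new class from the LN-OlapR side. The sorting receptor gene SORT1 had 26.8 CPM in LNCaP and 6.05 in LN-OlapR, against 21.7 in C4-2B and 33.9 in 2B-OlapR. ANXA2R-OT1 had 12.5, 4.16, 14.9 and 25.1 CPM. In both, LN-OlapR was the library that stood apart from the other 3.

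On the low side, PRKACB, a catalytic subunit of protein kinase A, had 226 CPM in LNCaP and 535 in LN-OlapR, against 211 in C4-2B and 33.8 in 2B-OlapR. The parents were nearly level (log2 ratio -0.09), and the resistant lines lay on opposite sides of them, 15.8-fold apart (14.7 to 17.1). PEG10, an imprinted gene of retrotransposon origin, had 1.19, 22.9, 1.08 and 2.03 CPM, so that LN-OlapR alone was high. ASS1P13, a pseudogene whose reads may be shared with related copies, followed the same pattern with 1.90, 30.6, 2.54 and 2.90 CPM.

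MCCC2, a subunit of the carboxylase that breaks down leucine, had 154 CPM in LNCaP and 994 in LN-OlapR, against 121 in C4-2B and 95.2 in 2B-OlapR. MAP1B, a microtubule-associated protein gene, had 152, 792, 207 and 80.5 CPM. These genes lie near each other on chromosome 5 (71587288 to 71658704 and 72107234 to 72209570, GRCh38). Of 17 genes analysed from 1000000 bases before to 1000000 bases after the pair, 3 were at least 2-fold lower in 2B-OlapR and none was at least 2-fold higher, beside 9.46% and 8.9% of all genes. The 3 were the pair itself and BDP1 (log2 ratio -1.66), which was already lower in C4-2B than in LNCaP (-1.28). Over the 17 genes the median log2 ratio was -0.2 for 2B-OlapR over LN-OlapR and -0.06 for LN-OlapR over LNCaP. The next gene, MRPS27, named after its values were seen, had 177, 187, 183 and 233 CPM.

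Genes whose direction was turned around relative to the parents formed the class of 270. In 95 of these both resistant lines were at least 2-fold from their parents in the direction of the new difference, in 81 2B-OlapR alone was, and in 86 LN-OlapR alone. Those described here had a mean of at least 10 CPM. GDF15, a stress-induced cytokine of the TGF-beta family, had 40.8 CPM in LNCaP and 532 in LN-OlapR, against 119 in C4-2B and 27.2 in 2B-OlapR. C4-2B had the higher level of the parents and 2B-OlapR the lower level of the resistant lines, 19.5-fold below LN-OlapR (18.0 to 21.3). MYBPC1, a gene of slow muscle myosin-binding protein, had 4.91, 45.6, 18.9 and 3.19 CPM and crossed over in the same way. SIPA1L2 had 16.6, 48.3, 26.7 and 6.86 CPM.

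The opposite crossing was seen for CAMK2N1, an inhibitor of calmodulin-dependent kinase II. It had 17.1 CPM in LNCaP and 8.88 in LN-OlapR, against 11.6 in C4-2B and 354 in 2B-OlapR, a 39.9-fold difference between the resistant lines (34.8 to 46.0). COLCA1 had 80.6, 21.0, 46.6 and 407 CPM. LIN7A, a scaffold protein gene of cell junctions, had 106, 2.14, 73.0 and 32.1 CPM, so that it was below its parent in both resistant lines and far more so in LN-OlapR. XAGE1A and XAGE1B, near-identical cancer-testis antigen genes whose reads may be exchanged, had 1 and 8 counts in LN-OlapR against 566 and 464 in LNCaP, and 748 and 432 in 2B-OlapR.

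Some parental differences were no longer present between the resistant lines. Of the 2363 genes 2-fold apart between C4-2B and LNCaP, 1179 (49.9%) were still at least 2-fold apart in the same direction and 501 (21.2%) had a log2 ratio under 0.5 in size. In 158 of the 501, LN-OlapR alone was at least 2-fold from its parent towards the other side, in 110 2B-OlapR alone was, in 22 both were, and in 211 neither was alone. Here the genes ranked had a mean of at least 10 CPM over the parents. H2AJ, which encodes the histone variant H2A.J, had 0 counts in LNCaP and 4712 in LN-OlapR, against 4662 in C4-2B and 4255 in 2B-OlapR. LNCaP was thus the only library without it, and the resistant lines were level (log2 ratio 0.02, interval -0.04 to 0.08).

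CADPS2, a gene of regulated secretion, had 0.670 CPM in LNCaP and 30.2 in LN-OlapR, against 58.3 in C4-2B and 35.1 in 2B-OlapR, and RTN4RL1 had 2.53, 29.8, 32.7 and 40.2 CPM. In the other direction, PRRT1B had 43.0, 1.24, 1.42 and 0.966 CPM, SEMA6A 39.6, 2.75, 1.47 and 3.09 CPM, and the ephrin receptor gene EPHA6 60.4, 10.6, 11 and 9.41 CPM. In these genes the value of LN-OlapR was close to that of both C4-2B-side libraries and LNCaP was the one apart. ASPH and DPYSL2 lost the difference on the other side, with ASPH at 136, 200, 1150 and 270 CPM and DPYSL2 at 26.7, 29.8, 4.40 and 37.0 CPM.

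Genes induced by DNA damage had the lowest median of all lists with at least 6 analysed genes. Of 26 listed genes, all reached the minimum, 16 were at least 2-fold lower in 2B-OlapR and none was 2-fold higher, against 9.46% and 8.9% of all genes. Their median log2 ratio was -1.35, and that of the same genes between the parents was -0.13. Values below C4-2B in 2B-OlapR were found for 23 of the 26 (9 by at least 2-fold), and values above LNCaP in LN-OlapR for 23 of the 26 (2 by at least 2-fold). Medians of these changes were -0.49 and 0.41 on the log2 scale. The gap between the resistant lines thus included a lower level on one side, a higher level on the other and a parental part. In the parents, 15 of the 26 genes were lower in C4-2B than in LNCaP.

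By their role, the cell cycle inhibitor gene CDKN1A, named like most genes of this list after its values were seen, had 76.1 CPM in LNCaP and 142 in LN-OlapR, against 77.8 in C4-2B and 18.6 in 2B-OlapR. The antiproliferative gene BTG2 had 42.2, 79.0, 25.9 and 12.5 CPM. Among death genes, BAX had 31.7, 38.3, 35.2 and 17.5 CPM and the receptor gene FAS 4.50, 6.69, 1.96 and 1.93 CPM, the latter a difference that the parents had.

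MDM2, a ubiquitin ligase gene, had 131, 149, 88.9 and 47.3 CPM in LNCaP, LN-OlapR, C4-2B and 2B-OlapR. The sestrin genes SESN1 and SESN2, which act on mTOR signalling, had log2 ratios of -2.06 and -2.01. Of the 16 genes, 5 were lower already in C4-2B by at least 2-fold, 4 were intermediate, 5 were new and 2 had been higher in C4-2B. PLK3 had the highest ratio on the list, at a log2 value of 0.39.

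**Figure D3:**
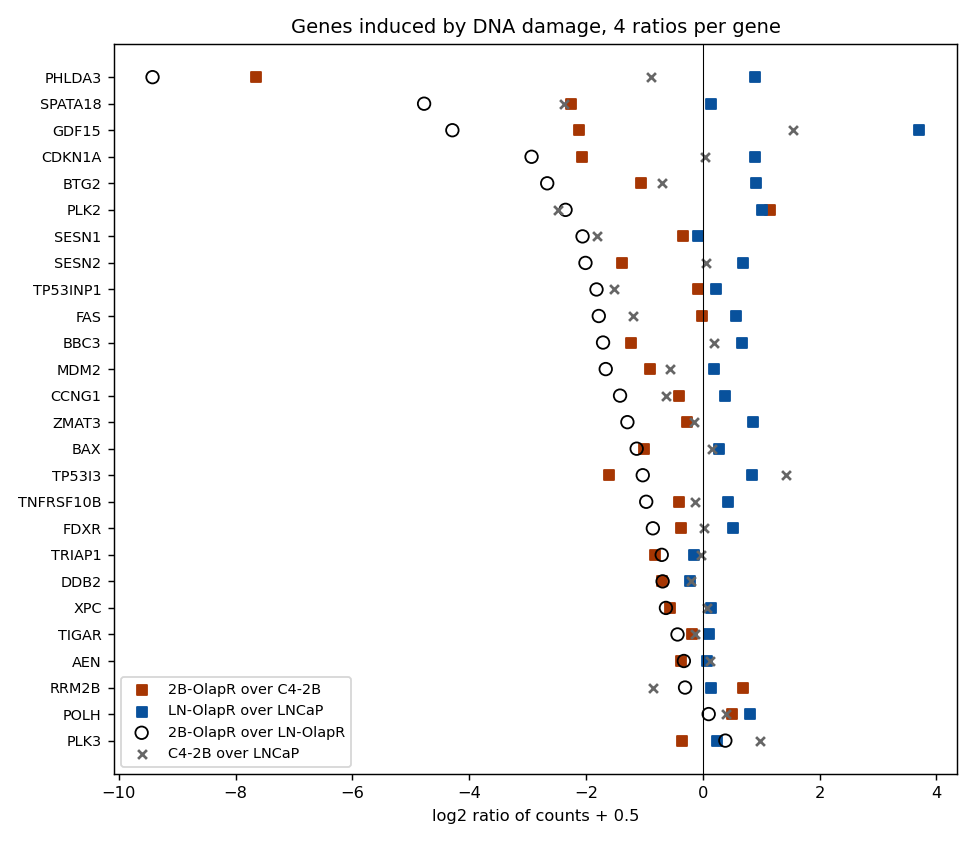
Log2 ratios of 26 genes induced by DNA damage, ordered by 2B-OlapR over LN-OlapR (open circles); squares give each resistant line over its own parent and crosses C4-2B over LNCaP. For 23 genes the 2B-OlapR squares lie left of 0, for 23 the LN-OlapR squares lie right of it, and PHLDA3 is farthest left at -9.42.

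Androgen-induced genes were mostly higher in LN-OlapR. Of 33 listed genes 29 reached the minimum, with 13 at least 2-fold lower in 2B-OlapR and 4 higher, beside 9.46% and 8.9% of all genes. Their median log2 ratio was -0.78 against -0.10 in the parents. On the LN-OlapR side 19 of 29 were above LNCaP, 11 of them by at least 2-fold, and on the 2B-OlapR side 20 of 29 were below C4-2B, 4 of them by at least 2-fold. The counts against LNCaP rest on the library that stood apart in KLK3.

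The kallikreins KLK3 and KLK2 are neighbouring, related genes whose promoters are shown because one holds the androgen response half-site letters AGAACA in the window of 250 bases before the start site and the other does not. KLK3 had 53.2 CPM in LNCaP and 2687 in LN-OlapR, against 2413 in C4-2B and 1871 in 2B-OlapR. The LNCaP library stood apart, and the resistant lines were 1.44-fold apart (1.42 to 1.45). KLK2 had 127, 748, 247 and 233 CPM, and LN-OlapR stood apart (log2 ratio -1.68). The sequences are from RefSeq (GRCh38.p14, plus strand, 200 to 101 bases before the start site; chr19:50854715-50854814 for KLK3 and chr19:50873239-50873338 for KLK2), and capitals mark AGAACA.
KLK3: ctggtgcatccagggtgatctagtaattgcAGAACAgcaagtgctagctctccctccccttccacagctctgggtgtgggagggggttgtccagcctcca
KLK2: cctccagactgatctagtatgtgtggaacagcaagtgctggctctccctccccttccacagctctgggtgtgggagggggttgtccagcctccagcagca
The whole promoter windows were identical at 79.9% of aligned positions. Where KLK3 reads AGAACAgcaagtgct, KLK2 reads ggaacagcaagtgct, which the search for the exact letters did not count as a match. AGAACA on either strand occurred in 14.8% of 35116 RefSeq promoters and in 5 of the 22 androgen-induced genes that had an entry. The 5 genes with the letters had a median log2 ratio of 0.19, and the 15 analysed genes without them -1.32, given as a description.

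Among the other androgen-induced genes, AZGP1, a secreted zinc-binding glycoprotein gene, had 22.3, 879, 172 and 91.1 CPM in LNCaP, LN-OlapR, C4-2B and 2B-OlapR. It was higher in C4-2B than in LNCaP but 9.64-fold lower in 2B-OlapR than in LN-OlapR (9.19 to 10.1). SLC45A3, which encodes prostein, had 380, 485, 592 and 74.7 CPM and was low in 2B-OlapR alone. HPGD, the lowest of the list, had 25.5, 2.70, 0.147 and 0.0966 CPM, below LNCaP in all other lines. PLA2G2A, a secreted phospholipase gene, was the highest, with 1.75, 0.858, 0.293 and 10.6 CPM. Among surface proteins used as drug targets, FOLH1, the gene of prostate-specific membrane antigen, had 735, 735, 439 and 334 CPM, and STEAP1 had a log2 ratio of -1.17.

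Interferon-induced genes went in both directions. Of 43 listed genes 28 reached the minimum, with 8 at least 2-fold higher in 2B-OlapR and 4 lower (8.9% and 9.46% of all genes), and the median log2 ratio was 0.45 against -0.32 in the parents. BST2, the tetherin gene that holds budding virus at the cell surface, had 0.261 CPM in LNCaP and 0.472 in LN-OlapR, against 4.74 in C4-2B and 88.6 in 2B-OlapR. LGALS3BP, a secreted galectin-binding protein gene, had 14.6, 11.4, 12.6 and 39.7 CPM. IFITM2, a membrane protein gene of antiviral defence, had 26.9, 35.3, 19.9 and 4.54 CPM.

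Interferon response elements carry the letters GAAA, any 2 bases and GAAA again, and the promoters of the BST2 and LGALS3BP genes are shown because both hold them and both genes were high in 2B-OlapR. The sequences are from RefSeq (GRCh38.p14, minus strand; chr19:17405681-17405780 for BST2, 150 to 51 bases before the start site, and chr17:78979924-78980023 for LGALS3BP, the last 100 bases before it), and capitals mark the matches, which overlap each other in BST2.
BST2: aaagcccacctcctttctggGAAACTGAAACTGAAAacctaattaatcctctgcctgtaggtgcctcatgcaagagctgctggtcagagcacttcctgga
LGALS3BP: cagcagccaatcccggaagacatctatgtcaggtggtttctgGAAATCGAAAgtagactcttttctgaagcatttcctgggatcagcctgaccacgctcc
The letters occurred on either strand in 3.57% of all 35116 promoters and in 23 of the 33 listed genes with an entry. Of those 23, 16 were analysed, with 3 higher, 2 lower and a median log2 ratio of 0.48. The 6 analysed genes with an entry but without the letters had 3 higher, 1 lower and a median of 0.32, so that both sets included both directions.

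For antigen presentation, 2 of 15 analysed genes were at least 2-fold higher in 2B-OlapR, a share near the 8.9% of all genes, and none was lower. HLA-C had 54.0, 62.9, 137 and 156 CPM in LNCaP, LN-OlapR, C4-2B and 2B-OlapR, a difference the parents had. ERAP2, an aminopeptidase gene that trims peptides, had 1.75, 0.601, 0.684 and 1.93 CPM, the reverse of the parental order. B2M was nearly level at 115, 121, 99.7 and 105 CPM.

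Mitochondrial transcripts are described by their genome of origin. All 13 mRNAs encoded in mitochondrial DNA were lower in 2B-OlapR than in LN-OlapR, 5 of them by at least 2-fold, beside 9.46% of all genes. Their median log2 ratio was -0.73. The same 13 were all lower in C4-2B than in LNCaP, with a median of -0.53. MT-ND1, a complex I subunit gene, was the lowest at 5327 CPM in LNCaP and 9504 in LN-OlapR, against 2771 in C4-2B and 2915 in 2B-OlapR, and the 5 genes past 2-fold (MT-ND1, MT-ND4, MT-ND5, MT-ND4L and MT-ND6) all encode complex I subunits. MT-CO3 was the highest (log2 ratio -0.22). Nuclear copies of mitochondrial DNA may share reads with these genes.

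Subunits encoded in the nucleus had slightly positive medians but went in both directions. Log2 ratios were positive for 21 and negative for 16 genes of complex I, and positive for 31 and negative for 7 of complexes II to V. For complex I the median log2 ratio of 37 genes was 0.18, with 1 gene at 2-fold (NDUFS7, with 78.8, 80.7, 104 and 162 CPM in LNCaP, LN-OlapR, C4-2B and 2B-OlapR), and for complexes II to V that of 38 genes was 0.28, with none past 2-fold in either direction. PINK1, the kinase that marks damaged mitochondria for removal, had 15.6 CPM in LNCaP and 21.4 in LN-OlapR, against 14.3 in C4-2B and 79.2 in 2B-OlapR. It was 3.70-fold higher in 2B-OlapR than in LN-OlapR (3.34 to 4.10), in parents that were level (log2 ratio -0.12), and 2B-OlapR was the library that stood apart. Of 17 mitophagy genes analysed, BNIP3L, a mitophagy receptor gene, was the other one past 2-fold, with 55.4, 63.5, 45.3 and 29.4 CPM, and the list's median was -0.03.

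In metabolism, differences were few. Glycolysis and lactate transport had a median log2 ratio of 0.00 over 25 genes, against 0.39 in the parents. SLC16A3, a lactate exporter gene, had 1.19, 4.89, 360 and 139 CPM, a difference in the direction of the parents but much smaller than theirs. The glucose transporter gene SLC2A3 was low in all libraries (log2 ratio -2.24). Cholesterol synthesis genes had a median of -0.22 over 23 genes, and all 23 had been lower in C4-2B than in LNCaP, with a parental median of -0.78. Fatty acid oxidation had 1 of 24 genes higher (ACADL, log2 ratio 3.52) and a median of -0.02.

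DNA repair genes were nearly level. Of 37 homologous recombination and Fanconi anemia genes none was 2-fold apart in either direction, and the median log2 ratio was -0.06. BRCA2, which loads the recombinase on DNA, was the highest at 33.0, 28.7, 53.2 and 52.6 CPM in LNCaP, LN-OlapR, C4-2B and 2B-OlapR, a difference of the parents. MRE11, a nuclease gene that acts on broken ends, was the lowest, with 39.9, 46.0, 31.8 and 24.2 CPM.

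PARP1, the main target of olaparib, had 583, 573, 601 and 520 CPM, a 1.10-fold difference between the resistant lines (1.08 to 1.13). Of 36 genes of PARP activity, base excision, end joining and fork protection, 1 was past 2-fold. It was TP53BP1, which steers breaks towards end joining, with 61.2, 74.5, 53.4 and 30.8 CPM. Efflux transporters had no gene past 2-fold among 5 analysed, and ABCC1 was the lowest at a log2 ratio of -0.93.

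Replication and mitosis genes had few 2-fold differences and slightly positive medians. Of 34 replication genes 4 were at least 2-fold higher, a share near the 8.9% of all genes, and none was lower, with a median log2 ratio of 0.33 against 0.08 in the parents. CDC45, a gene of the replication helicase, was the highest, with 42.7, 25, 68.7 and 65.7 CPM. Of 30 mitosis genes 1 was higher and 2 were lower, with a median of 0.25. CENPA, the centromere histone gene, had 17.3, 11.2, 20.4 and 28.6 CPM, and CENPE, a kinetochore motor gene, had 68.5, 58.3, 51.7 and 21.9 CPM. Most of these shifts were under 2-fold, a size for which single libraries give no replicate spread.

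Growth factor signalling genes differed one by one. EGFR had 74.4 CPM in LNCaP and 103 in LN-OlapR, against 196 in C4-2B and 474 in 2B-OlapR, 4.62-fold apart in the resistant lines (4.42 to 4.83) and in the same direction in the parents (log2 ratio 1.39). Its ligand genes went opposite ways, TGFA with 2.61, 0.515, 1.12 and 3.81 CPM and EGF with 5.92, 14.4, 9.29 and 6.37 CPM. In the insulin-like growth factor axis, 3 of 9 analysed genes were at least 2-fold higher and 2 lower (8.9% and 9.46% of all genes). IGF1 had 6.55, 8.96, 78.3 and 30.8 CPM and the adaptor gene IRS1 5.10, 9.82, 11.8 and 38.7 CPM, both higher on the C4-2B side already. IGFBP5 was the lowest of the list, at a log2 ratio of -5.44.

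HOX genes, which set position along the body axis, held part of the parental pattern. Of 20 analysed, 13 were at least 2-fold higher in C4-2B than in LNCaP, and between the resistant lines 8 were at least 2-fold higher and 2 lower (8.9% and 9.46% over all genes), with a median log2 ratio of 0.71 against 1.95 in the parents. HOXB7 had 0.0372, 0.0858, 10.2 and 10.6 CPM, and HOXA13 had 0 in both LNCaP-side libraries with 4.25 and 5.99 CPM in C4-2B and 2B-OlapR. Both reached the minimum only through 2B-OlapR. On the LN-OlapR side, 8 of the 20 were at least 2-fold above LNCaP.

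Among histone variants, 3 of 12 were at least 2-fold higher and 1 lower in 2B-OlapR, where 8.9% and 9.46% of all genes were. MACROH2A2, a variant of silent chromatin, had 66.2, 3.30, 8.70 and 0.434 CPM, below its parent in both resistant lines by similar factors (log2 ratios -4.25 and -4.32). H2AZ1 had 442, 349, 586 and 873 CPM. Cancer-testis antigen genes had 5 higher and 1 lower of 14 analysed, beside the same shares of all genes, and some reached the minimum only through 2B-OlapR. MAGEA10 was the 1 that was lower, with 24.7, 21.1, 30.5 and 4.25 CPM.

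Adhesion and matrix genes held 2-fold differences in both directions, given here beside 8.9% higher and 9.46% lower over all genes. Of 10 analysed cadherin and protocadherin genes 4 were higher and 5 lower in 2B-OlapR, and some reached the minimum only through the line where they were high. CDH3, the P-cadherin gene, had 0.0372, 0.0858, 19.9 and 19.1 CPM, as in the parents. Of 28 collagen, laminin and integrin genes 4 were higher and 9 lower. COL5A1 had 0.856, 7.12, 1.71 and 0.193 CPM and crossed the parental order. Of 7 mesenchymal transition genes 3 were higher and 1 lower, and VIM, the vimentin gene, had 57.1, 1.46, 41.8 and 9.41 CPM, so that it was below its parent in both resistant lines and by more in LN-OlapR. In the semaphorin, plexin and neuropilin list 4 of 22 were higher and 2 lower, led by SEMA6D, which had 0, 2.44, 0.391 and 76.0 CPM.

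Lists of few analysed genes were led by single members. KRT19 was the luminal keratin with the highest log2 ratio (2.08), SULT2B1 led the 8 steroid enzyme genes analysed (1.45), and UCHL1 was the lowest of 5 neuroendocrine genes (-1.62). Of the basal list ITGB4 alone reached the minimum, through 2B-OlapR, with 0.686 CPM in LN-OlapR and 6.03 in 2B-OlapR (log2 ratio 3.1). UGT2B15, which inactivates androgens and shares sequence with its relatives, had 74.7, 0.815, 16.3 and 2.90 CPM in LNCaP, LN-OlapR, C4-2B and 2B-OlapR, far below the parents in both resistant lines. The metallothionein gene MT1G had 1, 48, 0 and 1 counts. Of fibroblast markers, ACTA2 had 125, 212, 4 and 7 counts. Of leukocyte and endothelial markers, CD68 and VWF alone reached the minimum, with log2 ratios of -1.23 and -0.74.

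**Figure D4:**
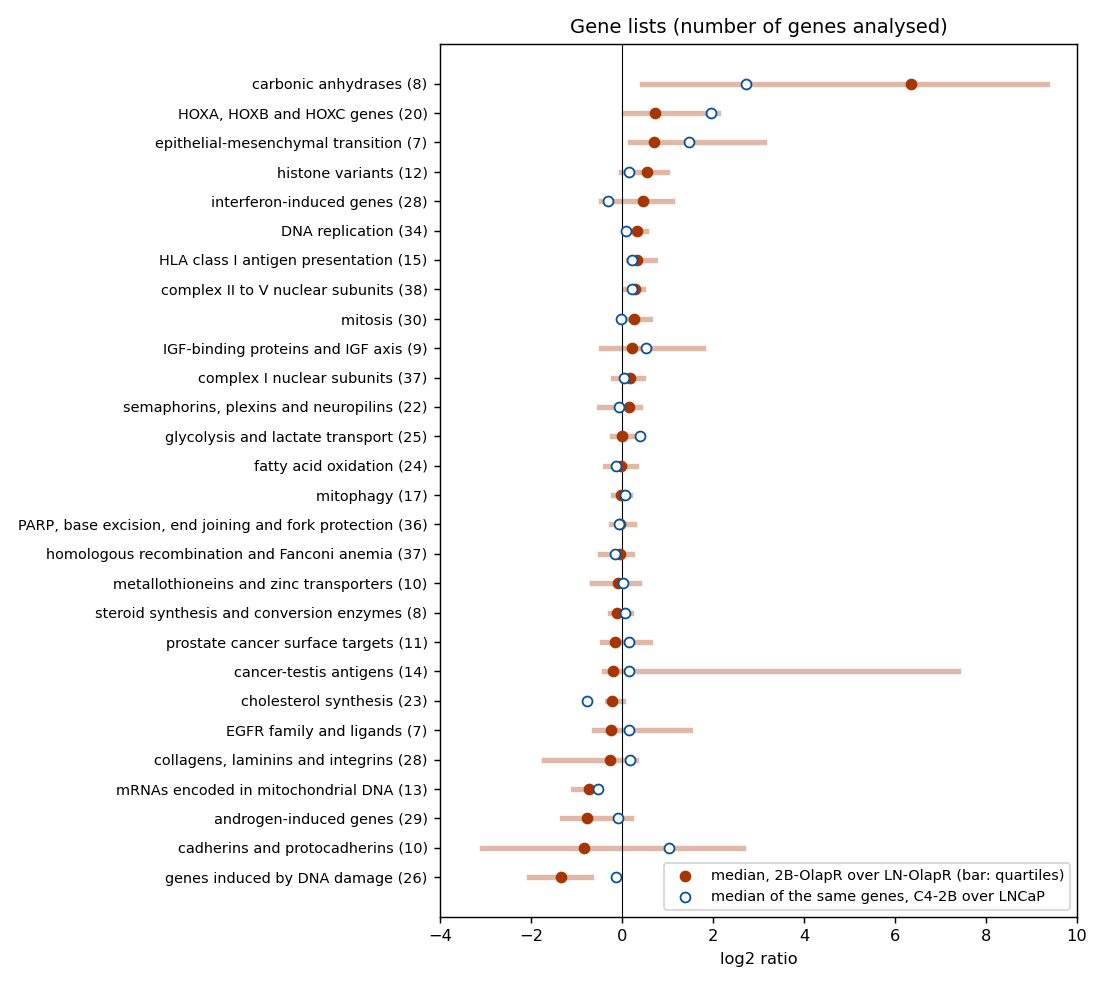
Median log2 ratio of 2B-OlapR over LN-OlapR for gene lists with at least 6 analysed genes (filled circles, bars from the lower to the upper quartile) and of C4-2B over LNCaP for the same genes (open circles). The genes induced by DNA damage lie lowest at -1.35 with the parental median at -0.13, and both repair lists lie near 0.

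By chromosome, medians of the log2 ratio over genes were lowest for chromosomes 14 and 18. On chromosome 14 the median over 501 genes was -0.51, and 20.4% of the genes were at least 2-fold lower in 2B-OlapR, beside 9.46% of all genes. On chromosome 18 the median over 224 genes was -0.47, with 20.5% lower. Both medians were -0.13 between the parents and -0.40 for 2B-OlapR over C4-2B, and for LN-OlapR over LNCaP they were -0.03 and -0.07, so that most of both shifts lay on the 2B-OlapR side. Chromosome 12 had a median of -0.26, again from 2B-OlapR (-0.32 over C4-2B).

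Chromosomes 21 and 22 showed medians of -0.26 and 0.37 that had the same sign in the parents (-0.43 and 0.19). Chromosome 5 had a median of 0.12, with 0.34 for 2B-OlapR over C4-2B and 0.06 for LN-OlapR over LNCaP. Of 17 analysed genes placed on chromosome Y, 12 were at least 2-fold lower in 2B-OlapR and 10 had 3 counts or fewer there. Whether copy number differs between these lines was not tested.

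**Figure D5:**
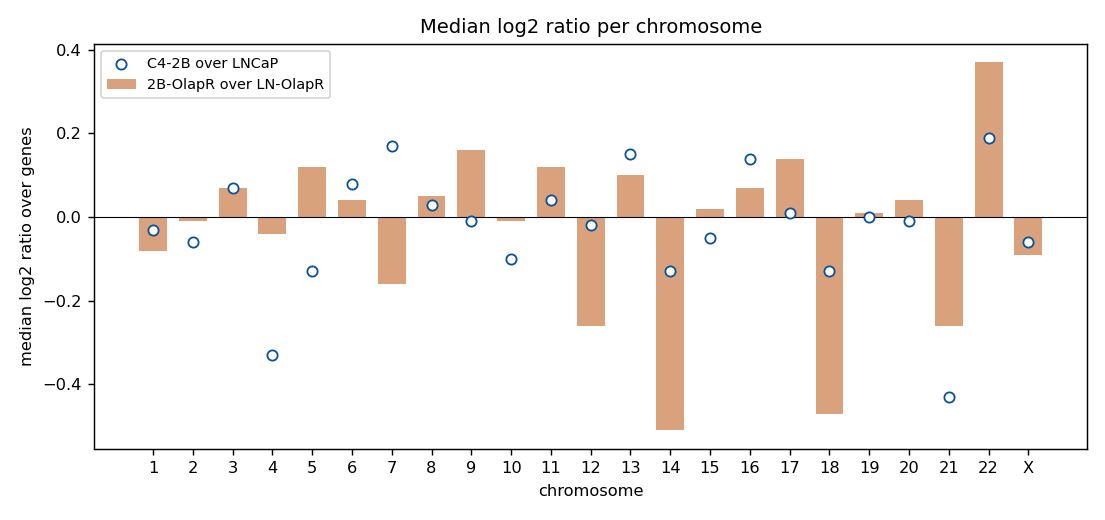
Median log2 ratio over the analysed genes of each chromosome, for 2B-OlapR over LN-OlapR (bars) and C4-2B over LNCaP (open circles). Chromosomes 14 and 18 have the lowest bars, at -0.51 and -0.47, each below its parental circle at -0.13, and chromosome 22 has the highest at 0.37.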

How the data were processed

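Stranded mRNA libraries of 4 cell lines, 1 library each, were analysed. The authors deposited 1 table of expected counts per gene, identified by Ensembl number and symbol, in which 46.2% of values were not whole and the lowest row sum over 4 libraries was 10. The submitters' processing notes name STAR, Partek and GRCh38 (hg38) without versions. The counting tool, the annotation and the use of strand are not given in the sources used here, and overlapping or antisense genes may therefore share reads. RNA was taken 48 hours after plating per the labels, whereas the methods of the study give another time.

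Expected counts were rounded, 18 of 22637 rows that repeat pseudoautosomal genes were left out, and library sizes were scaled by trimmed mean of M values in edgeR 4.0.16 (R 4.3.3). Log2 ratios used a pseudocount of 0.5 counts. Ratios carry exact conditional 95% intervals (scipy 1.17.1), which cover counting error only. When a library had 0 counts, a floor of 3 counts gave the bound. The classes used log2 limits of 1 (2-fold) and 0.5 (not differing). No test was possible with 1 library per line. Genes were named as the 10 highest and 10 lowest ratios at a mean of at least 10 CPM, the 5 at each end of the inherited, new, opposite and lost classes, the ends of 37 gene lists, any member of lists of up to 20 genes, and PINK1, IGFBP3, EGFR, KLK3, H2AJ and PARP1. Y-linked genes were counted and not named. KLK2, LGALS3BP, HOXB7, most damage-induced genes and the neighbouring genes were chosen after their values were seen. The members and lists were chosen with earlier results of these data known. Alternatives were other scalings (DESeq2 1.42.0 size factors, upper quartile, total counts), a pseudocount of 2, other minimum levels and other limits. Gene positions are from GENCODE 29 and promoters from RefSeq. PHLDA3, PINK1 and CA2 had no promoter entry. Some items are not reported here.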

Additional observations from a re-analysis of the deposited data

Results flagged for a closer look

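Of the genes named by rank and the list members with a mean of at least 1 CPM in the resistant lines, 23 were at least 2-fold above the parent in one resistant line and at least 2-fold below it in the other, with counts of 0 set to the floor of 3. The values below are the log2 ratio of 2B-OlapR over C4-2B minus that of LN-OlapR over LNCaP, which equals the gap by which the resistant pair departs from the parental pair. With 1 library per line the difference was not tested for any of them. Lower on the 2B-OlapR side were PCDH7 (-8.31), COL5A1 (-6.03), GDF15 (-5.83), MYBPC1 (-5.77), CACNA1H (-5.71), PCDHB2 (-4.51), ITGA10 (-4.48), PRKACB (-3.89), GASK1B (-3.84), MAP1B (-3.74), SIPA1L2 (-3.50), SLC16A3 (-3.40), SLC2A3 (-2.96) and SNAI2 (-2.88). Higher on the 2B-OlapR side were XAGE1A (10.39), XAGE1B (6.72), PLA2G2A (6.07), COLCA1 (5.07), SEMA6A (4.90), TGFA (4.03), ERAP2 (2.97), PLXND1 (2.61) and ENO2 (2.15). For 8 of the 23 at least 1 of the 4 libraries had under 10 counts, namely CACNA1H, COL5A1, ITGA10, PCDHB2, PLA2G2A, SLC2A3, XAGE1A and XAGE1B. The reads of XAGE1A and XAGE1B may be exchanged between the copies, and those of PCDHB2 may be shared with other protocadherin beta genes.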

How the results depend on the processing

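Other scalings (total counts, DESeq2 size factors, upper quartile), a pseudocount of 2 and the use of genes with a symbol only left the counts of 2-fold genes within 1.5 times and the class shares within their binomial intervals, and the scalings shifted the median over all genes by at most 0.052 on the log2 scale. All 169 recomputed list medians stayed within the interval of the main value, 206 of 212 recomputed ratios of named genes did so, and none whose interval left out 0 changed sign. The list intervals run over genes and can be wide, -7.46 to 4.10 for cadherins and protocadherins. At 0.1 CPM their median went from -0.85 to 0.21, that of cancer-testis antigens from -0.21 to 0.69 and that of the IGF axis from 0.22 to -0.16. Some list medians near 0 also changed sign under other scalings. The minimum level decided the counts. At a mean of 0.1 CPM, 3014 genes were higher and 2962 lower, with 22.9% of the parental differences gone, and at 10 CPM 479 were higher and 556 lower, with 35.7% inherited and 32.8% new. The shares depend on the limits by construction. At 4-fold, 38.5% were inherited, 15.4% new and 14.0% gone. With a limit of 0.25 for not differing, 12.2% were new and 11% gone, and with 1, 53.1% were new and 43.9% gone. No replicate could be left out and no paired analysis was possible because each line has 1 library. Depth limits values under about 3 counts per library.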

Other observations

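Zinc finger genes, a family not looked at until the chromosome values had been seen, had a lower median in 2B-OlapR. Of 410 analysed genes with a ZNF number as symbol, many of which encode DNA-binding repressors, 125 (30.5%) were at least 2-fold lower in 2B-OlapR than in LN-OlapR and 8 (1.95%) were higher, beside 9.46% and 8.9% of all genes. Their median log2 ratio was -0.67, with -0.43 between the parents, -0.31 for 2B-OlapR over C4-2B and -0.14 for LN-OlapR over LNCaP. Chromosome 19 holds 209 of them, and 94 of these (45.0%) were at least 2-fold lower, compared with 64 of the other 865 genes of that chromosome (7.40%). These genes share sequence, and the part that shared reads or low levels play was not tested.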
